A study of Mus musculus with 12 samples.

Results

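Liver microRNAs (miRNAs) of obesogenic-fed male mice were compared by the diet of their mothers. The 6 libraries came from sons of obesogenic-fed mothers (group OO, 3 libraries) and sons of control-fed mothers (group CO, 3 libraries), chosen by the maternal and offspring diets in the sample labels, and form 6 of the 12 libraries and use all 386 miRNA rows of the study. All mice were wild-type C57BL/6 males killed fasted on postnatal day 84 (12 weeks). All sons in both groups were weaned on day 21 onto the obesogenic diet, which held 20% lipids and 10% simple carbohydrates and came with condensed milk (8% protein, 8% lipids and 55% simple carbohydrates). Their mothers, from a cohort of 35 females, ate either that diet or a chow of 3% lipids and 7% simple carbohydrates until weaning, and litters were set to 6 pups on day 3. Mothers therefore differed in diet before mating, in pregnancy and in lactation together. The other groups, CC (mother and son on control diet) and OC (obesogenic-fed mother, control-fed son), with 3 libraries each, entered the estimate of the spread and are set beside the comparison. The question was whether the mother's diet is marked in the liver miRNAs of adult sons that all eat the obesogenic diet.

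A miRNA is cut from a hairpin transcript as a short duplex, and either arm (5p or 3p) can be loaded into an Argonaute protein. The loaded strand pairs with messenger RNAs chiefly through its seed near the 5′ end, and it lowers their stability or translation, so miRNAs that share a seed can share targets. In liver, hepatocytes are rich in miR-122, miR-192 and miR-148a, while endothelial, stellate, blood and immune cells bring miRNAs of their own. Many miRNA genes lie in introns of protein-coding genes or in clusters that can be transcribed together, some of them imprinted.

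Mature sequences of 16 of the 20 miRNAs with the smallest p-values in this comparison are shown first, with those of some relatives by seed or genomic cluster, because seeds and near-identical copies decide which of them can be read as separate measurements. They are from RefSeq (GRCm38.p6), 5′ to 3′, with the seed at bases 2 to 8 in capitals. Of 390 miRNA names in the table, 324 matched RefSeq by name and 5 through a synonym.
miR-326-3p: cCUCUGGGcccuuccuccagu
miR-330-5p: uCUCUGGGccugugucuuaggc
miR-3084-3p: uUCUGCCAgucuccuucagac
miR-335-5p: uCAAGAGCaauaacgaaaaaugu
miR-335-3p: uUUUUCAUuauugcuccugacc
miR-542-5p: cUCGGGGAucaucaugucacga
miR-374b-5p: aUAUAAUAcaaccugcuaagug
miR-374c-5p: aUAAUACAaccugcuaagug
miR-322-5p: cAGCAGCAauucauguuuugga
miR-497-5p: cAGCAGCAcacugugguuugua
miR-195a-5p: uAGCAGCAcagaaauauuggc
miR-16-5p: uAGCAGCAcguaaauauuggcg
miR-139-5p: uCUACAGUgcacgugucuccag
miR-214-3p: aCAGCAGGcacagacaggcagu
miR-199a-5p: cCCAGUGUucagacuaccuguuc
miR-3061-3p: cUACCUUUgauaguccacugcc
miR-29c-5p: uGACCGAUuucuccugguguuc
miR-17-5p: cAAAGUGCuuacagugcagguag
let-7b-3p: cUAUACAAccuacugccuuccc
let-7a-1-3p: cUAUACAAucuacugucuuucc
miR-134-5p: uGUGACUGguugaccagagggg
miR-409-3p: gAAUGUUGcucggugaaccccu
miR-326-3p shares the seed CUCUGGG with miR-330-5p. miR-322-5p, miR-497-5p, miR-195a-5p and miR-16-5p share AGCAGCA, the seed of the miR-15 and miR-16 family, and let-7b-3p and let-7a-1-3p share UAUACAA. The 20 bases of miR-374c-5p are contained in miR-374b-5p from its base 3 on, and both rows held identical values in every library, as did miR-467a-5p with miR-467b-5p and miR-1982.1-3p with miR-1982.2-3p. The 386 rows are therefore 383 separate measurements. Counts over all miRNAs are counts of rows, and where such a pair enters a smaller count the number of measurements is given beside it.

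Values are CPM, the reads of a miRNA scaled to the library's total, and changes are differences of log2(CPM + 1), OO minus CO. Depth was 13.1, 15.0 and 5.45 M reads in CO (mean 11.2 ± 5.04, SD, n = 3) and 12.0, 21.5 and 10.5 M reads in OO (14.7 ± 6.00, SD, n = 3). CO replicate 3, the shallowest, stood apart: it was the lowest of the 6 libraries for 194 miRNAs (50.3%), against 30 to 46 for each of the others, and its median deviation from the mean of the 6 was -0.22 on the log2 scale. OO replicate 3 was the highest for 145, with a median deviation of 0.15. The hepatocyte miRNA miR-192-5p took 29.2% of the summed values in CO replicate 3, 25.3% and 23.7% in the other CO libraries and 24.5% to 25.05% in OO. miR-122-5p, the defining hepatocyte miRNA, stood at 20930, 22481 and 28851 CPM in CO and 22499, 20303 and 19991 CPM in OO, so the liver label was borne by all 6 libraries. The labels name no mother or litter, though OO replicate 3 has a title that begins like the title of OC replicate 2, and what this marks is not stated. The tests took all libraries as unrelated. Their p-values cover the spread between libraries of 12 livers, in which variation between animals and technical variation are mixed. The prefixes of the titles split fully with maternal diet, so a batch behind them and the mother's diet cannot be told apart. In whole liver, fewer cells of a type and less RNA per cell cannot be told apart either.

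**Figure D1:**
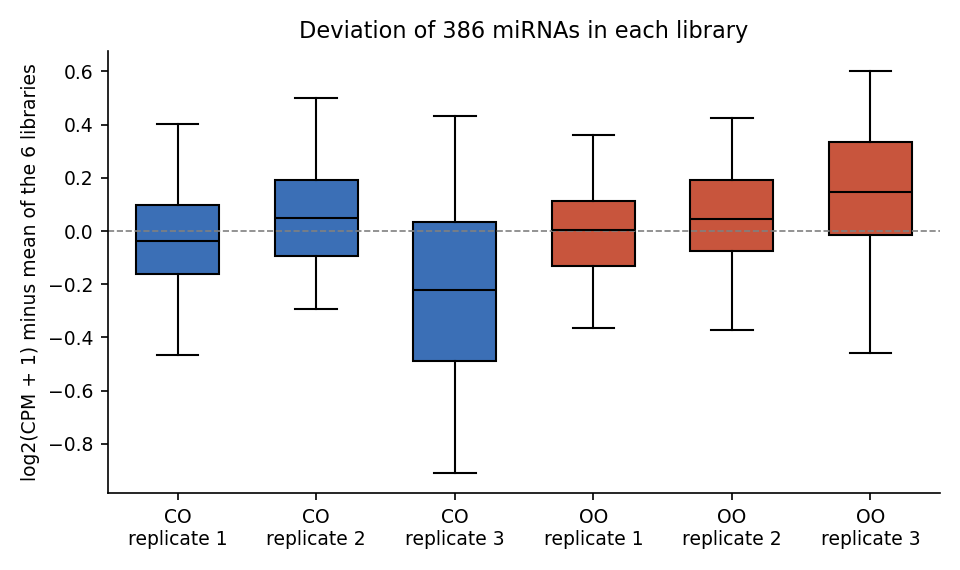
Deviation of 386 miRNAs from the mean of the 6 libraries (y axis, log2(CPM + 1)) in each CO (blue) and OO (red) library, as medians with boxes from the 25th to the 75th percentile and whiskers from the 5th to the 95th. The box of CO replicate 3 sits lowest, with a median of -0.22, and that of OO replicate 3 highest, at 0.15.

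No miRNA differed between OO and CO past the test: 0 of 386 (0%) had an adjusted p under 0.05 by limma with Benjamini-Hochberg adjustment, and the smallest was 0.165. At an unadjusted p under 0.05 there were 47, of which 38 lay higher in OO (9.84% of all miRNAs) and 9 lower (2.33%); limma-voom also gave 0 past the adjusted threshold and 48 unadjusted. The 95% interval of the change lay within 1 log2 unit on either side of 0 for 312 of 386 miRNAs. The median change over all miRNAs was 0.13, with 272 higher and 114 lower. Both that median and the direction of the unadjusted calls moved with the scaling. With median-of-ratios factors the median was 0.02, with 21 higher and 28 lower, so that the share of higher calls went from 80.9% to 42.9%. With TMM factors the median was -0.01, with 21 higher and 32 lower (39.6% higher), and without CO replicate 3 the median was 0.06 with 26 higher and 10 lower. Higher and lower below mean above and below 0. For the lists, the number of members above the overall median of 0.13 is given beside those counts.

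**Figure D2:**
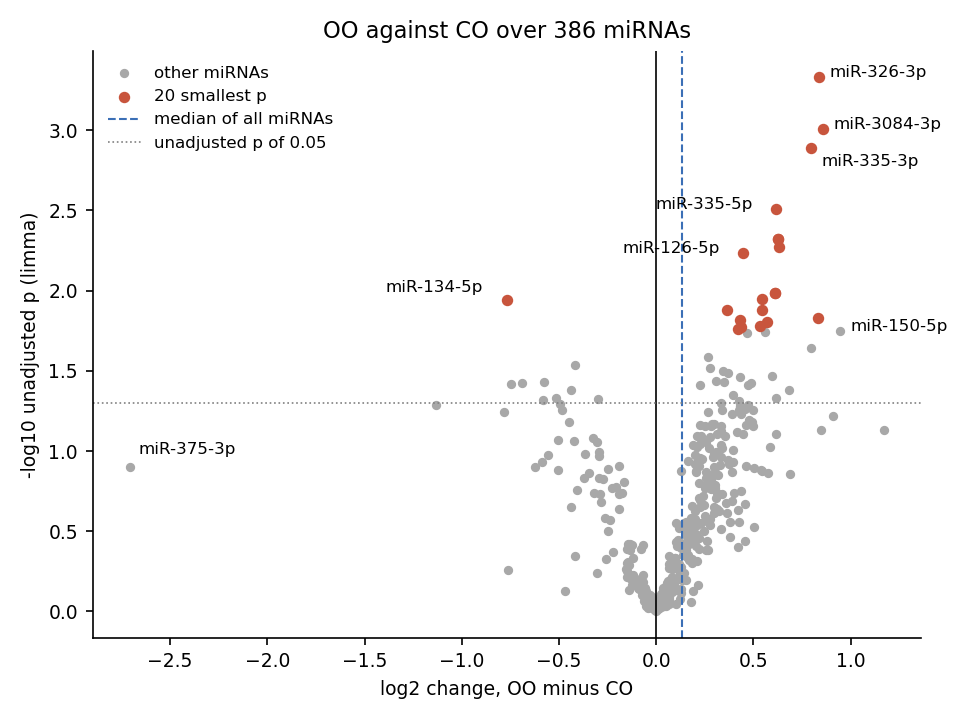
Each of 386 miRNAs by its change between OO and CO (x axis, log2) and its unadjusted p by limma (y axis, -log10), with the 20 smallest p in red, the median change as a blue dashed line and an unadjusted p of 0.05 dotted. The cloud is shifted to the right, and miR-326-3p stands at its top at a change of 0.84, with miR-134-5p alone among the 20 on the left at -0.77.

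The OO and CO libraries did not overlap for 63 miRNAs that lay higher in OO (16.3%) and 11 that lay lower (2.85%). With median-of-ratios factors these were 26 (6.74%) and 28 (7.25%), and with TMM factors 22 (5.7%) and 32 (8.29%). In control-fed sons, OC against CC, the same count gave 17 higher (4.4%) and 17 lower (4.4%).

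The 20 miRNAs with the smallest p comprised 19 that lay higher in OO and miR-134-5p, which lay lower. Their groups did not overlap for 18 of the 19 and for miR-134-5p, against the 16.3% and 2.85% among all miRNAs, in a set chosen by the same contrast. As 2 identical pairs are among the 20, they are 18 measurements, 17 of them higher. CO replicate 3 was the lowest of the 6 libraries for 15 of the 20. None of the 20 changed direction in the 14 other settings that could move the OO-CO change; 8 more settings altered only the spread or the rows tested. These settings reuse the libraries that chose the 20, so they describe how the values depend on the processing and are no separate support. The same holds for the next count. In 18 of 386 miRNAs, which are 16 measurements (13 higher, 3 lower), the unadjusted p was under 0.05 at the deposited scaling, with TMM factors, with median-of-ratios factors and on leaving out CO replicate 3. These were miR-326-3p, miR-3084-3p, both arms of miR-335, miR-467a-5p and miR-467b-5p, miR-542-5p, miR-126-5p, miR-374b-5p and miR-374c-5p, miR-322-5p, miR-214-3p, miR-3061-3p, miR-199a-5p and miR-497-5p on the higher side, and miR-134-5p, miR-409-3p and miR-19a-3p on the lower.

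miR-326-3p had the smallest p. It is encoded on the plus strand of chromosome 7 (GRCm38, 99552269 to 99552363), in an intron of Arrb1, the gene of beta-arrestin 1, which regulates signalling of G-protein-coupled receptors. It stood at 33.4, 28.9 and 20.4 CPM in CO and 53.5, 46.4 and 47.6 CPM in OO (27.6 ± 6.64 and 49.2 ± 3.81, SD, n = 3 each), with every OO library above every CO library. The change was 0.84 (SE 0.173, 95% interval 0.46 to 1.22), or 0.71 with median-of-ratios factors and 0.64 without CO replicate 3, and the limma adjusted p was 0.165. In control-fed sons miR-326-3p stood at 31.7, 32.3 and 30.6 CPM in CC and 41.0, 36.3 and 45.5 CPM in OC. All 6 libraries from sons of obesogenic-fed mothers thus lay above all 6 from sons of control-fed mothers. Its seed partner miR-330-5p stood at 16.4, 14.6 and 10.5 CPM in CO and 14.1, 13.9 and 19.7 CPM in OO, where the groups overlapped.

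Both arms of miR-335 were among the 4 smallest p-values. The hairpin is encoded on the plus strand of chromosome 6 (30741299 to 30741396), in an intron of Mest, an imprinted gene that is expressed from the paternal allele and known from adipose tissue growth. miR-335-3p stood at 35.4, 38.6 and 25.3 CPM in CO and 50.9, 57.7 and 64.5 CPM in OO, a change of 0.80 (SE 0.188). miR-335-5p stood at 73.6, 97.0 and 60.2 CPM in CO and 118, 110 and 122 CPM in OO, a change of 0.62 (SE 0.165). For both arms every OO library was above every CO library, and with median-of-ratios factors the changes were 0.67 and 0.48. By limma with Benjamini-Hochberg adjustment the adjusted p was 0.165 for the 3p and 0.279 for the 5p arm. In control-fed sons the arms parted: the change between OC and CC was 0.32 for miR-335-3p and -0.16 for miR-335-5p.

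miR-3084-3p, which is encoded at 2 places on chromosome 19 (minus strand), in introns of Cbwd1 at 24942235 to 24942303 and of the translation factor gene Eif3a at 60774329 to 60774397, stood at 2.67, 3.81 and 1.84 CPM in CO. In OO it stood at 5.44, 5.67 and 5.92 CPM. These values rested on 35, 57 and 10 reads in CO and 65, 122 and 62 reads in OO, and the 2 places cannot be separated. The change was 0.86 (SE 0.195, limma adjusted p = 0.165), or 0.76 with median-of-ratios factors and 0.67 without CO replicate 3. All 3 CO libraries lay below all 9 libraries of the other groups. miR-139-5p, from an intron of the phosphodiesterase gene Pde2a, stood at 132, 117 and 113 CPM in CO and 159, 154 and 153 CPM in OO (change 0.36, SE 0.124). With median-of-ratios factors its change was 0.23, TMM factors gave 0.21, and its unadjusted p was above 0.05 with both.

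In the list of miRNAs in introns of metabolic or imprinted host genes, 9 of 11 lay higher in OO, all 9 above the overall median, and 2 lower, with a median of 0.43. Over all miRNAs 272 of 386 lay higher, with a median of 0.13. None of its members passed the adjusted threshold, and 3 were higher at an unadjusted p under 0.05, which 9.84% of all miRNAs were: miR-326-3p and both arms of miR-335. The median was 0.22 without CO replicate 3 and 0.18 without OO replicate 3. miR-33-5p, whose hairpin lies in the cholesterol regulator Srebf2 and which represses the cholesterol exporter Abca1, was 1 of the 2 lower members, at 11.7, 12.9 and 7.34 CPM in CO and 6.52, 6.27 and 10.1 CPM in OO, with overlapping groups. The other arm of that hairpin, miR-33-3p, lay the other way, at a mean of 3.02 CPM in CO and 4.28 CPM in OO, also with overlapping groups.

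**Figure D3:**
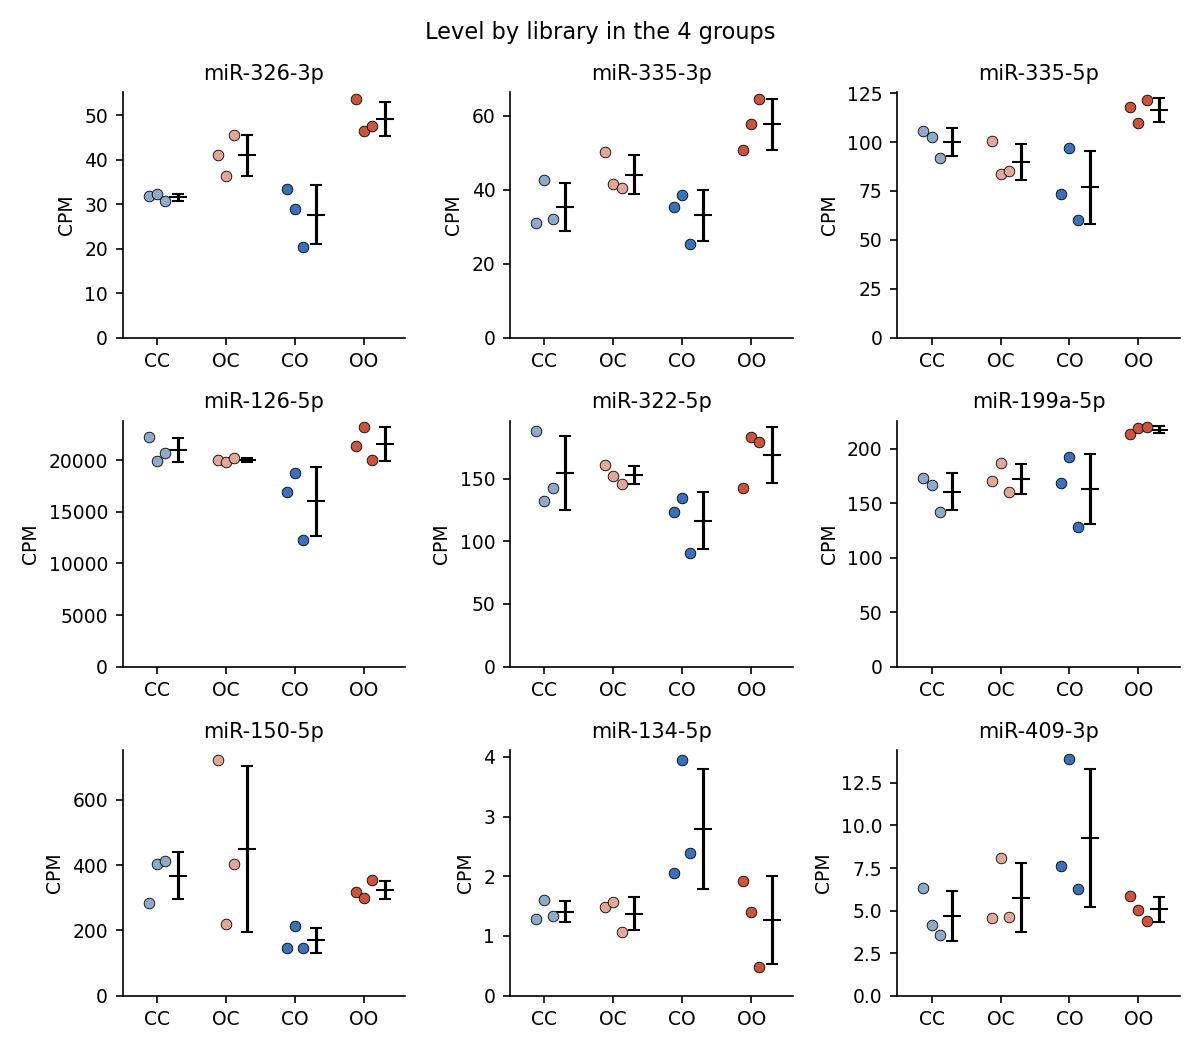
CPM (y axis, from 0) of 9 miRNAs in each of the 12 libraries by group (x axis); points are libraries and the bars beside them the mean and SD of 3. For miR-326-3p both groups with obesogenic-fed mothers (OC and OO) sit above both with control-fed mothers, whereas for miR-126-5p the CO libraries alone sit low and for miR-134-5p the CO libraries alone sit high.

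miR-126, the endothelial miRNA that supports vascular integrity, had both arms higher in OO, without overlap between the groups. Its gene lies within Egfl7, an endothelial secreted factor, on chromosome 2 at 26591357 to 26591429 (plus strand). miR-126-5p, among the most abundant miRNAs here, stood at 16971, 18755 and 12324 CPM in CO and 21418, 23261 and 20016 CPM in OO, a change of 0.45 (SE 0.133, limma adjusted p = 0.279). It was 0.31 with median-of-ratios factors and 0.27 without CO replicate 3. In control-fed sons all 6 libraries lay between 19805 and 22227 CPM, so that the CO libraries were below all 9 others. miR-126-3p stood at 4094, 4229 and 3260 CPM in CO and 4776, 4791 and 4404 CPM in OO (change 0.28, SE 0.113).

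The endothelial list (both arms of miR-126, miR-501-3p and miR-1968-5p) had 4 of 4 members higher, against 272 of all 386 miRNAs. Of them 3 lay above the overall median, and the list median was 0.24. miR-501-3p and miR-1968-5p averaged 2.25 and 7.58 CPM, with overlapping groups, and whole liver does not show whether either is endothelial. The 2 at an unadjusted p under 0.05 (9.84% of all miRNAs on the higher side) were the arms of the 1 hairpin miR-126. With median-of-ratios factors 3 of 4 were higher, the median was 0.13 and miR-126-5p alone was at that level. Its members held 2.09%, 2.27% and 1.54% of the summed values in CO and 2.60%, 2.78% and 2.42% in OO. That share difference of 0.63 percentage points was 0.418 without CO replicate 3, and most of it was miR-126-5p.

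miRNAs of stellate cells and fibroblasts lay in both directions. miR-199a and miR-214, which are expressed in mesenchymal cells and known from liver fibrosis, share the non-coding transcript Dnm3os on chromosome 1 at 162217814 to 162223477 (plus strand). All 4 measured arms lay higher with no overlap between groups, which 16.3% of all miRNAs did. Their median was 0.38, or 0.26 with median-of-ratios factors and 0.24 without CO replicate 3. The cluster holds 2 of the 20, which the same contrast chose, and CO replicate 3 was the lowest of the 6 libraries for all 4 arms. miR-214-3p stood at 26.9, 31.1 and 20.7 CPM in CO and 34.3, 37.9 and 42.7 CPM in OO (change 0.54, SE 0.185, limma adjusted p = 0.307). miR-199a-5p, which a second hairpin on chromosome 9 also encodes, stood at 168, 193 and 128 CPM in CO and 214, 218 and 220 CPM in OO (0.43, SE 0.152, limma adjusted p = 0.307). The changes were 0.33 for miR-214-5p and 0.31 for miR-199a-3p, which is listed jointly with its identical copy miR-199b-3p.

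The wider list of stellate cell, fibroblast and fibrosis miRNAs had 13 of 16 higher, 10 of them above the overall median, and a median of 0.17, which was 0.03 with median-of-ratios factors. The higher members numbered 11 with those factors and 8 with TMM factors. miR-143-3p, of smooth muscle and mesenchymal cells, lay lower without overlap, at 35963, 35218 and 44972 CPM in CO and 35007, 34107 and 32021 CPM in OO (change -0.19, SE 0.151), and -0.08 without CO replicate 3. For the abundant miR-10a-5p (0.02, SE 0.142) and for miR-10b-5p (-0.26, SE 0.348) the groups overlapped. At an unadjusted p under 0.05, 4 members were higher and miR-143-5p was lower (9.84% and 2.33% of all miRNAs), at 9.31, 9.76 and 10.1 CPM in CO and 6.52, 6.59 and 8.02 CPM in OO (change -0.42, SE 0.168). Its members held 7.63%, 7.41% and 9.95% of the summed values in CO and 8.24%, 8.16% and 7.37% in OO, so the summed level overlapped between the groups.

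The miR-29 family, which targets collagens and other matrix transcripts and is studied in hepatic insulin signalling, had 5 of 6 members higher, all 5 above the overall median, and a median of 0.42. This rested on CO replicate 3, without which the median was 0.13. miR-29a-3p, its most abundant member, stood at 4118, 4313 and 2366 CPM in CO and 4454, 4429 and 4452 CPM in OO (change 0.35, SE 0.185), and its change was 0.08 without that library. miR-29b-3p stood at 90.6, 106 and 52.1 CPM in CO and 108, 111 and 118 CPM in OO (0.49, SE 0.208), and 0.19 without it. miR-29c-5p, the minor arm and a member of the leading 20, kept more of its change, at 10.2, 14.0 and 9.18 CPM in CO and 16.8, 16.2 and 15.8 CPM in OO (0.53, SE 0.190), and 0.42 without it. For miR-29c-3p the change was 0.30 and 0.03 without it.

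The seed AGCAGCA of the miR-15 and miR-16 family, which restrains cell-cycle genes, was carried by 6 measured miRNAs. All 6 lay higher in OO, against 272 of all 386 miRNAs, with changes from 0.18 to 0.80. Their median was 0.33, or 0.20 with median-of-ratios factors and 0.19 without CO replicate 3. CO replicate 3 was the lowest of the 6 libraries for all 6 miRNAs, and for 194 of all 386. The seed was followed because miR-322-5p, which the same contrast chose, carries it. miR-322-5p stood at 124, 134 and 90.7 CPM in CO and 143, 183 and 180 CPM in OO (change 0.54, SE 0.180, limma adjusted p = 0.307), with no overlap. miR-497-5p stood at 113, 116 and 41.9 CPM in CO and 135, 149 and 147 CPM in OO. Its change of 0.80 (SE 0.304) was 0.32 without CO replicate 3. miR-195a-5p, encoded beside miR-497 on chromosome 11, stood at 120, 142 and 106 CPM in CO and 136, 176.2 and 163 CPM in OO (0.37, SE 0.152). miR-16-5p, the most abundant of the 6, stood at 8723, 8473 and 5385 CPM in CO and 8653, 8311 and 9397 CPM in OO, where the groups overlapped.

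miR-322 lies in a cluster with miR-503, miR-542 and miR-450 on the X chromosome at 53047997 to 53054349 (minus strand), known from growth and muscle differentiation. All 7 measured arms lay higher, against 272 of all 386 miRNAs, and 6 did with TMM factors. Their median was 0.18, against 0.13 over all miRNAs. With median-of-ratios factors it was 0.08, against 0.02. CO replicate 3 was the lowest of the OO and CO libraries for 6 of the 7. The cluster was taken up because it holds miR-322-5p and miR-542-5p, which the same contrast chose. miR-542-5p stood at 1.37, 1.67 and 0.734 CPM in CO and 2.68, 2.46 and 2.20 CPM in OO (change 0.63, SE 0.184, limma adjusted p = 0.279), all CO libraries below all 9 others. The more abundant arm, miR-542-3p, stood at 14.7, 11.2 and 9.55 CPM in CO and 12.0, 12.3 and 14.6 CPM in OO (0.14, SE 0.175), with overlap. miR-322-3p overlapped likewise (0.18, SE 0.151).

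Other members of the 20 were spread over the genome. miR-374b-5p and miR-374c-5p, from overlapping hairpins on opposite strands at the Ftx locus on the X chromosome, stood at 25.5, 24.7 and 14.1 CPM in CO and 33.6, 29.8 and 33.6 CPM in OO (change 0.61, SE 0.200). miR-874-5p (0.57) and miR-874-3p (0.56) lay higher together. miR-3061-3p stood at 1.83, 1.60 and 3.67 CPM in CO and 4.68, 3.02 and 7.54 CPM in OO (0.83, SE 0.291). Its groups overlapped, and CO replicate 3 was the highest of its group. miR-17-5p, of the cell-cycle cluster miR-17-92, stood at 61.2, 68.2 and 47.0 CPM in CO and 71.6, 80.3 and 83.2 CPM in OO (0.42, SE 0.152). Its cluster on chromosome 14 was mixed, with 5 of 9 arms higher, 3 of them with median-of-ratios factors, and a median of 0.06. Within it miR-19a-3p lay lower, at 28.6, 29.7 and 18.5 CPM in CO and 16.5, 20.0 and 18.5 CPM in OO (-0.44, SE 0.190). Without CO replicate 3 its change was -0.65.

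miR-467a-5p and miR-467b-5p come from the rodent-specific cluster in an intron of the imprinted gene Sfmbt2. They stood at 0.993, 1.67 and 1.29 CPM in CO and 1.92, 3.16 and 2.67 CPM in OO, on 7 to 68 reads (change 0.63, SE 0.179, limma adjusted p = 0.279). The 4 measured rows of that cluster are 3 measurements, all higher, with a median of 0.40. miR-467d-5p stood at 1.91, 1.94 and 2.39 CPM in CO and 2.68, 3.53 and 2.96 CPM in OO (0.40, SE 0.176). At these levels the change depends on the pseudocount: for miR-467a-5p it was 0.26 with 5 CPM in place of 1.

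The let-7 family, which restrains growth and is studied in insulin sensitivity, parted by arm. The main 5p arms had 2 of 9 higher, none above the overall median, and a median of -0.09. The passenger 3p arms had 9 of 10 higher, 8 of them above the overall median, and a median of 0.28. Of the passenger arms 3 were higher at an unadjusted p under 0.05 (9.84% of all miRNAs), and 0 were with median-of-ratios factors. let-7b-3p stood at 107, 95.3 and 111 CPM in CO and 130, 129 and 169 CPM in OO (change 0.44, SE 0.156, limma adjusted p = 0.307), all CO libraries below all 9 others. Its partner let-7b-5p overlapped, at 1217, 1604 and 1457 CPM in CO and 1201, 1469 and 1652 CPM in OO. let-7d-3p stood at 478, 423 and 397 CPM in CO and 503, 494 and 663 CPM in OO (0.34, SE 0.141). The row of let-7a-1-3p and the identical let-7c-2-3p stood at 132, 131 and 117 CPM in CO and 147, 158 and 153 CPM in OO (0.27, SE 0.104). The main arms moved with CO replicate 3, in which they held 7.75% of the summed values, against 5.11% and 5.69% in the other CO libraries and 5.01% to 5.80% in OO. Without it their median was 0.02. Over the 99 hairpins with both arms measured, the changes of the arms correlated at r = 0.35, or 0.48 in the 57 whose arms averaged at least 10 CPM. This is a description across hairpins, which share libraries and are not independent replicates.

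Blood cell miRNAs lay in both directions. All 9 leukocyte miRNAs were higher, but 7 with median-of-ratios or TMM factors, where miR-146a-5p and miR-146b-5p were lower, and 7 lay above the overall median. The list's median was 0.30, or 0.17 with median-of-ratios factors, and 1 member was higher at an unadjusted p under 0.05 (9.84% of all miRNAs). That was miR-150-5p, of mature lymphocytes, at 147, 215 and 147 CPM in CO and 319, 298 and 354 CPM in OO (change 0.95, SE 0.342, 95% interval 0.20 to 1.70, limma adjusted p = 0.307). The CO libraries lay below all 9 others, but in control-fed sons miR-150-5p ranged from 220 to 724 CPM within OC alone. miR-223-3p, of myeloid cells, overlapped at 149, 190 and 86.3 CPM in CO and 152, 193 and 190 CPM in OO. The leukocyte list held 0.290%, 0.308% and 0.238% of the summed values in CO and 0.310%, 0.344% and 0.344% in OO, and its part in the other changes was not tested.

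All 5 erythroid miRNAs were lower in OO, with a median of -0.51, against 114 of all 386 miRNAs. They include both arms of miR-144 and of miR-486, so they are not 5 separate hairpins. Of them 1, miR-486-5p, had an unadjusted p under 0.05, which 2.33% of all miRNAs had on the lower side. miR-486-5p, listed jointly with miR-3107-5p, stood at 5594, 2374 and 3884 CPM in CO and 2280, 1670 and 2855 CPM in OO (change -0.75, SE 0.320). miR-451a stood at 2563, 1446 and 826 CPM in CO and 983, 965 and 1296 CPM in OO (-0.44, SE 0.340), and miR-144-3p at 481, 257 and 164 CPM and 183, 172 and 190 CPM (-0.59, SE 0.347). In all 3 rows CO replicate 1 was the highest of the 6 libraries and the groups overlapped. The list held 0.893%, 0.421% and 0.501% of the summed values in CO and 0.357%, 0.292% and 0.450% in OO. Its difference of -0.239 percentage points was -0.0949 without CO replicate 1, and its median change was then -0.18.

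The imprinted Dlk1-Dio3 region on chromosome 12, a large maternally expressed miRNA cluster active in development, held 2 of the 4 lower miRNAs at an unadjusted p under 0.05 whose groups did not overlap. miR-134-5p stood at 2.06, 3.94 and 2.39 CPM in CO and 1.92, 1.39 and 0.477 CPM in OO (change -0.77, SE 0.256, limma adjusted p = 0.307), on 5 to 59 reads. CO lay above all 9 libraries of the other groups. miR-409-3p stood at 7.64, 13.9 and 6.24 CPM in CO and 5.85, 5.02 and 4.39 CPM in OO (-0.69, SE 0.293), and miR-541-5p at 38.4, 69.3 and 43.5 CPM and 44.8, 26.7 and 27.8 CPM (-0.58, SE 0.264). CO replicate 2 was the highest of the 6 libraries for all 3, and without it their changes were -0.56, -0.38 and -0.34. The 8 measured miRNAs of the hairpin cluster at 109709060 to 109743795 (plus strand) were all lower, against 114 of all 386 miRNAs. The cluster was taken up because it holds miR-134-5p, which the same contrast chose, so this count is a description and no separate support. Their median was -0.43 and ranged from -0.61 to -0.27 as each CO or OO library was left out. The list for the whole region was mixed, with 9 of 16 lower and a median of -0.14, and 13 lower with median-of-ratios factors. Of its members 3 were lower at an unadjusted p under 0.05 (2.33% of all miRNAs), and 2 lay lower without overlap (2.85%). In control-fed sons 10 of the 16 were higher, with a median of 0.11.

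Hepatocyte-enriched miRNAs lay in both directions, with changes from -0.48 (SE 0.227) to 0.45 (SE 0.482). Without CO replicate 3 these 2 changes were -0.15 and -0.04. Of 11, 5 lay higher and 6 lower, with a median of -0.04 that was -0.17 with median-of-ratios factors, and none had an unadjusted p under 0.05. With those factors 3 lay higher, and 2 were lower at that level, as were 28 of all 386 miRNAs. miR-122-5p had a change of -0.19 (SE 0.115, 95% interval -0.44 to 0.06), miR-192-5p one of -0.07 (SE 0.077) and miR-148a-3p one of -0.08 (SE 0.091). miR-194-5p stood at 6503, 6989 and 3704 CPM in CO and 7056, 7377 and 7304 CPM in OO (0.39, SE 0.187), and its change was 0.10 without CO replicate 3. Of the other most abundant miRNAs, miR-22-3p (0.20, SE 0.118) and miR-30a-5p (0.13, SE 0.0776) lay higher and miR-21a-5p lower (-0.33, SE 0.172), all with overlapping groups. With median-of-ratios factors the changes were 0.06, -0.01 and -0.46, and miR-21a-5p then had an unadjusted p under 0.05.

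The lists for metabolism lay near the median of all miRNAs. The cholesterol and fatty acid list had 14 of 22 higher, 11 of them above the overall median, and a median of 0.16. Its single member at an unadjusted p under 0.05 was miR-335-5p, on the higher side, where 9.84% of all miRNAs were. With median-of-ratios factors 1 member was higher and 4 were lower at that level, against 21 and 28 of all 386 miRNAs. The insulin signalling and glucose list had 11 of 18 higher, 10 of them above the overall median, and a median of 0.21, which was 0.03 without CO replicate 3. Its members at an unadjusted p under 0.05 were miR-29b-3p, which was higher (9.84% of all miRNAs), and miR-19a-3p and miR-320-3p, which were lower (2.33%). miR-320-3p stood at 156, 198 and 190 CPM in CO and 146, 143 and 149 CPM in OO (change -0.30, SE 0.136). The inflammation and steatohepatitis list had 7 of 13 higher, 4 of them above the overall median, a median of 0.04 and no member at that level. With median-of-ratios factors 2 of its members were lower at that level, as were 28 of all 386 miRNAs. The miR-30 family, another abundant hepatic family, had 10 of 11 higher but 4 above the overall median and 4 higher with median-of-ratios factors, with a median of 0.08. The clusters miR-17-92, miR-106a-363 and miR-106b-25 had 10 of 15 higher, 6 of them above the overall median, and a median of 0.06. The wider list of miR-15 and miR-16 family arms had 9 of 11 higher, 8 above the overall median, and a median of 0.25. The cluster of miR-183, miR-96 and miR-182 had 3 of 3 higher, 2 with median-of-ratios factors, and a median of 0.46, which was 0.05 without CO replicate 3.

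Markers of tissues outside the liver showed large values in few libraries of either group. The list for muscle, pancreas and nervous tissue had 4 of 9 higher, 3 above the overall median, and a median of -0.03. It held 0.0159%, 0.146% and 0.0400% of the summed values in CO and 0.128%, 0.0101% and 0.00884% in OO. miR-133a-3p, its most abundant member, averaged 175 ± 153 CPM in CO and 399 ± 639 CPM in OO (SD, n = 3 each). miR-375-3p, of islets and other endocrine cells, stood at 35.8, 1061 and 266 CPM in CO and 39.98, 51.2 and 16.6 CPM in OO, so that its change of -2.70 (SE 1.63) rested on CO replicates 2 and 3. In this list miR-137-3p was higher (0.60, SE 0.248) and miR-7a-5p lower (-0.51, SE 0.231) at an unadjusted p under 0.05 (9.84% and 2.33% of all miRNAs), both with overlapping groups. The list of biliary and other epithelium had 5 of 11 higher, 3 above the overall median, and a median of -0.09, and held 0.257%, 0.299% and 0.234% of the summed values in CO and 0.272%, 0.296% and 0.280% in OO. Its single member at that level was miR-203-5p, at 7.02, 6.95 and 2.39 CPM in CO and 8.61, 10.2 and 7.35 CPM in OO (0.68, SE 0.299), and 0.27 without CO replicate 3.

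**Figure D4:**
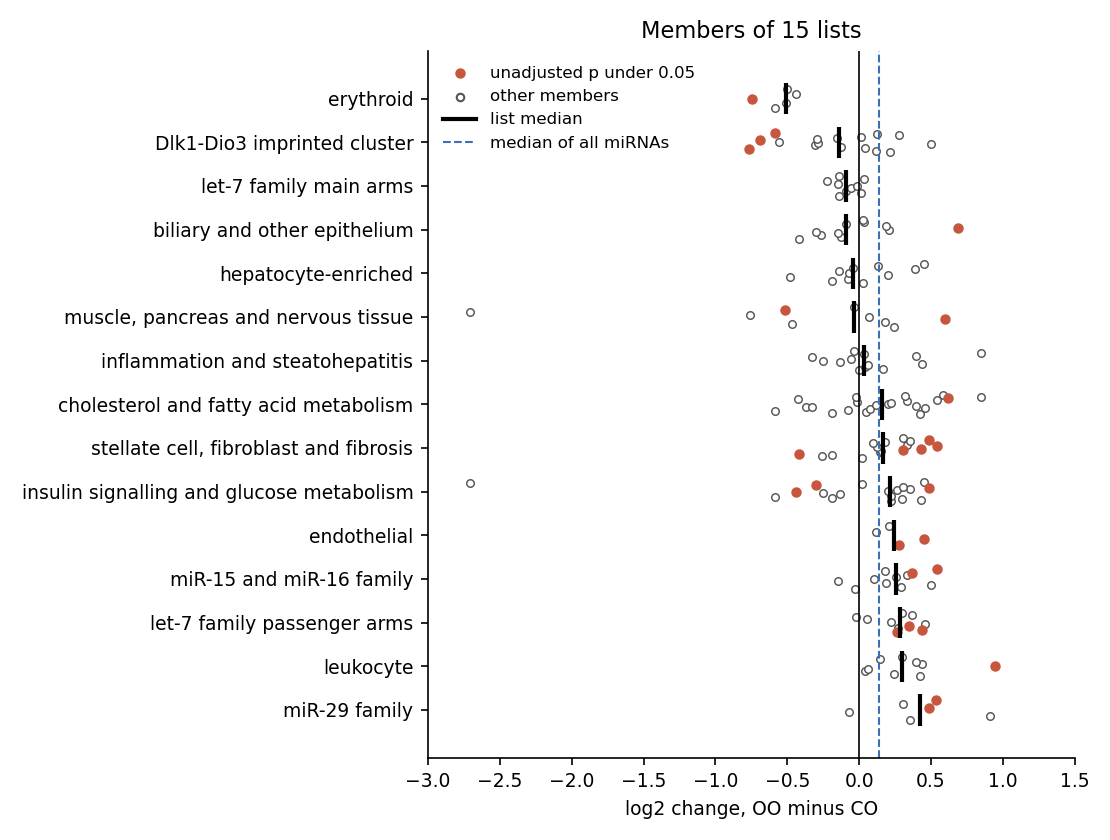
Change between OO and CO (x axis, log2) of every measured member of 15 lists, filled red at an unadjusted p under 0.05, with list medians as black bars and the median of all miRNAs as a blue dashed line at 0.13. The erythroid members all sit on the left with a median of -0.51. The leukocyte members all sit on the right of 0 (7 of 9 with median-of-ratios factors) with a median of 0.30. The other medians run from -0.14 (Dlk1-Dio3 region) to 0.42 (miR-29 family), on both sides of the dashed line.

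The mother's diet was then followed in sons fed the control diet, OC against CC, whose means come from other libraries than those of OO and CO, though the estimate of the spread was shared. By limma 0 of 386 (0%) passed there, and at an unadjusted p under 0.05 there were 0 higher (0%) and 4 lower (1.04%), while limma-voom gave 0 and 6. On leaving out 1 library these 4 became 12 (10 higher) without CC replicate 3 and 7 without CC replicate 2, CO replicate 3 or OO replicate 3. They were 8 with median-of-ratios factors, 9 with TMM factors, 12 in the 6 libraries of this contrast alone and 16 with quality weights. With log2 depth in the fit they were 35 (8 higher, 27 lower), and those of OO against CO were also 35. Depth was 9.94 ± 3.02 M reads in CC and 18.8 ± 2.97 M reads in OC (SD, n = 3 each). The median change was 0.03. Across all 386 miRNAs the changes in the 2 diets of the sons correlated at r = -0.07, a description over miRNAs that share a library.

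The test of the difference between the changes gave 0 of 386 past the adjusted threshold by limma (0%), with a smallest adjusted p of 0.773. At an unadjusted p under 0.05 there were 12 in which the change was larger in obesogenic-fed sons (3.11%) and 3 in which it was smaller (0.777%), and limma-voom gave 0 and 13. These 15 became 9 without OC replicate 2, 25 without CO replicate 1 and 38 without CO replicate 2. With quality weights they were 34, and with log2 depth in the fit 48 (42 larger, 6 smaller). The direction moved with the scaling: 8 were larger and 7 smaller with median-of-ratios factors, and 8 larger and 8 smaller with TMM factors. miR-335-5p had the smallest p, with a change of 0.62 when sons ate the obesogenic diet, -0.16 when they ate chow and a difference of 0.78 (SE 0.234). It was followed by miR-330-3p (0.47 and -0.38), let-7c-1-3p (0.27 and -0.33), miR-126-5p (0.45 and -0.06) and the row of let-7a-1-3p and let-7c-2-3p (0.27 and -0.12). For miR-326-3p the difference was 0.48 (SE 0.245), from changes of 0.84 and 0.36. When log2 depth was added to the fit, miR-126-5p alone passed (limma adjusted p = 0.0410). For 16 of 386 miRNAs all CO libraries lay below all 9 libraries of the other groups, and for 1, miR-134-5p, they lay above. Among the 16 were miR-126-5p, miR-150-5p, miR-497-5p, miR-542-5p, miR-3084-3p and let-7b-3p. CO replicate 3, the lowest of the 6 OO and CO libraries for 194 miRNAs, is part of each of these. The count was made at the deposited scaling only.

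**Figure D5:**
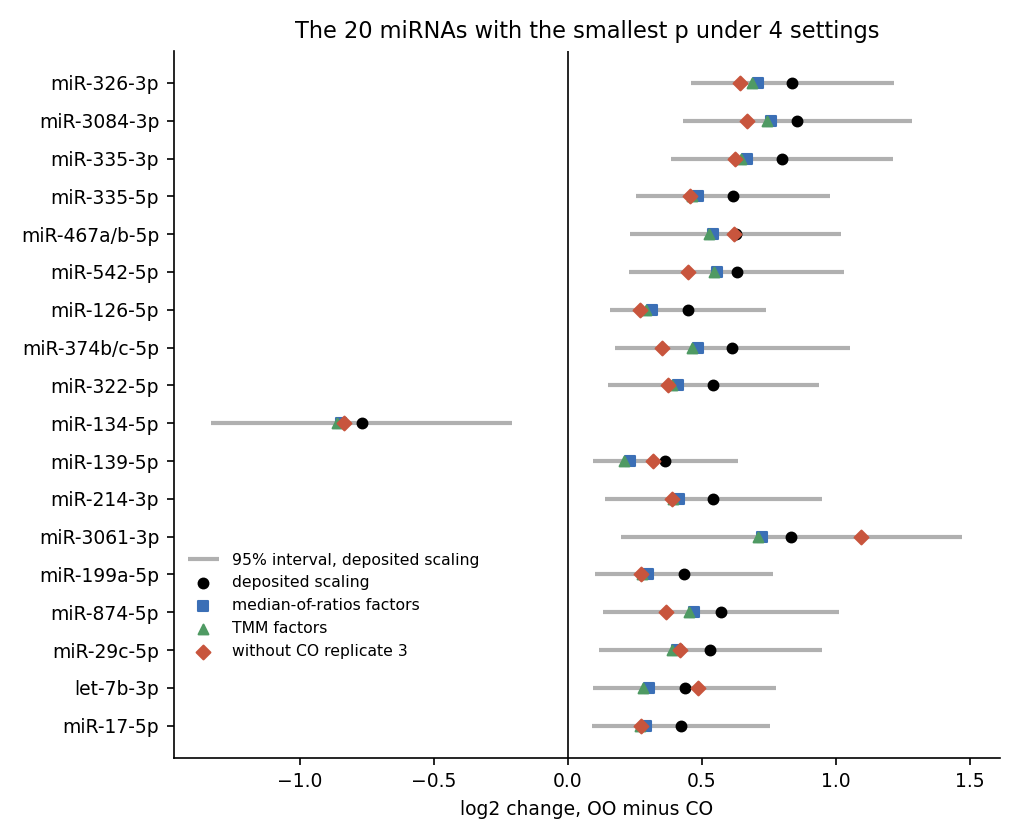
Change between OO and CO (x axis, log2) of the 20 miRNAs with the smallest p, with identical rows drawn together, at the deposited scaling (black, with its 95% interval as a grey line), with median-of-ratios (blue) and TMM factors (green) and without CO replicate 3 (red). All points keep their side of 0, in a set chosen by the same contrast. Those of miR-326-3p go from 0.84 to 0.64, while miR-3061-3p is larger without CO replicate 3, at 1.09.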

How the data were processed

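Small RNA of 12 livers was sequenced (TruSeq small RNA kit, total RNA on miRNeasy columns, per the labels' protocols). The submitters' processing notes name Bowtie 1.2.3. The build, the miRNA annotation and the treatment of multiply matching reads were not given in the sources used here. CPM values of 386 mature miRNA rows, none at 0, were deposited by the authors as 1 table. In each column 100% of values were whole multiples of 1 step within 0.001 reads, which gave the depths. Of the rows, 6 formed identical pairs, 4 named more than 1 miRNA and 125 averaged under 10 CPM. Columns were matched to samples by the column number in the sample description, and replicate numbers follow accession order.

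log2(CPM + 1) was fitted with limma 3.58.1 (R 4.3.3): 3 two-sided contrasts between group means of 12 libraries, with a mean-variance trend, Benjamini-Hochberg over all 386 rows, threshold 0.05. A change on this scale understates that of low miRNAs. The fit was tested on simulated data. Gene context is from GENCODE vM21 and RefSeq on GRCm38. Python 3.11.15 with numpy 2.4.6, pandas 2.3.3 and matplotlib 3.10.9 did the rest.

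Named are the miRNAs past the threshold, the 20 with the smallest p in OO against CO and the other arms of their hairpins. Also named are the list members at an unadjusted p under 0.05, some of the 4 most abundant of each list (the others are in its counts), the 5 most abundant of all and the 5 with the smallest p of the difference. Both arms of miR-33, miR-223-3p, miR-330-5p and miR-375-3p were added after their values were seen, as were the rows counted against all 9 other libraries. The members and the lists were chosen with earlier results of these data known, so lists are described by counts and medians without a test. Hairpin clusters and shared seeds were described only where they hold a member of the 20, so their counts are no separate support. No list member passed the adjusted threshold.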

Additional observations from a re-analysis of the deposited data

How the results depend on the processing

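No miRNA passed in OO against CO at another pseudocount (0.25 or 5 CPM), with a mean of at least 10 CPM required, with median-of-ratios or TMM factors, in the 6 libraries alone, with quality weights, with limma-voom or with depth (log2) in the fit. On leaving out 1 library the count ranged from 0 to 2, the 2 being miR-3084-3p (change 1.05) and miR-335-5p (0.80) without CO replicate 2, both at a limma adjusted p of 0.0497. In the difference of the maternal effects the count was 1 with depth in the fit and 0 otherwise. The number at an unadjusted p under 0.05 went from 47 to 29 with the stricter filter, 26 in the 6 libraries alone and 77 without CO replicate 2. With median-of-ratios factors and CO replicate 3 left out together, an alternative chosen after seeing the data, there were 14 higher and 19 lower, and the median change was -0.003. Of 61 miRNAs whose changes are given by name, 7 changed direction in at least 1 setting. These were miR-542-3p (-0.0058 with TMM factors, -0.0794 with quality weights and -0.0550 with the added alternative), miR-29c-3p (-0.0408) and miR-22-3p (-0.0330), both with the added alternative, and miR-30a-5p (-0.0086 with median-of-ratios factors, -0.0307 with those of TMM). On leaving out 1 library miR-192-5p ranged from -0.135 to 0.0155, the higher value without CO replicate 3. miR-10a-5p was -0.114 with median-of-ratios factors, -0.136 with those of TMM and from -0.104 to 0.222 on leaving out 1 library (-0.0561 without CO replicate 1, -0.104 without CO replicate 2, -0.0170 without OO replicate 1 and -0.0144 without OO replicate 2). miR-10b-5p was 0.125 with quality weights and from -0.446 to 0.0638 on leaving out 1 library, the higher value without CO replicate 3. Groups of 3 libraries could not reach a p under 0.1 in an exact permutation test of a single miRNA. The planned count models (edgeR and DESeq2) were not run; limma-voom was run on the recovered reads. No paired analysis was made, because sons of differently fed mothers form no pairs and the labels name no mother or litter.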
